A study of Mus musculus with 48 samples.

Results

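The genes described here are 32 transcripts of B cells and plasma cells, read in T cells that had been purified from mouse spleen. They were taken by symbol from the 53345 rows of the count and FPKM tables, and all 32 were found. T cells are not known to make most of these transcripts. The level of those in a T cell fraction is therefore a gauge of B lineage RNA that came through the purification. Cd72 and Ralgps2 varied little between Treg libraries and are a poor gauge here. FPKM is a read count scaled by gene length and by library size, and CPM is the count scaled by library size alone. The rule itself uses no measured value, but the genes were chosen with earlier results of these data known. For reference, GENCODE vM21 (GRCm38) places Cd79a (ENSMUSG00000003379.7) on chromosome 7 at 24897381 to 24902197, Pax5 on chromosome 4 at 44524757 to 44710487, Jchain on chromosome 5 at 88519809 to 88527891 and Ighm on chromosome 12 at 113418558 to 113422730.

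The spleens came from female C57BL/6 mice aged 8 to 12 weeks. Every mouse received 2 intraperitoneal doses of antibody at 500 µg each, on the day before and on the day of the injection, either an isotype control (isotype) or an antibody that blocks MHC class II (MHC II block). On the second of these days each mouse was injected 1 time under the skin with PBS or with an Fc-fused human IL-2 at 25 µg, namely the wild type (WT IL-2), H16R or 3x, the last 2 being attenuated muteins with 1 and 3 amino acid substitutions. Spleens were taken on day 4, so that every group, PBS with isotype included, had been given an antibody. Tregs were the cells bound in a CD25 positive selection and Tcons were the CD25- flow-through of the same step, each mouse kept separate. There were 32 Treg libraries (4 mice in each of 8 groups) and 16 Tcon libraries (2 of the 4 mice in each group). A pair of isotype WT IL-2 Treg libraries carries the same mouse label, and these are called replicates 3a and 3b. Both are bulk fractions from a bead selection and can hold other spleen cells, which limits them as a model of T cells.

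B cells carry an antigen receptor made of membrane immunoglobulin and the signalling chains Cd79a and Cd79b, which pass the signal to kinases and adaptors such as Btk, Blk and Blnk. Their identity is held by transcription factors such as Pax5 and Ebf1, and their surface carries the CD20 protein (Ms4a1), lectins that restrain the receptor and receptors for complement, IgE and BAFF. When a B cell becomes a plasma cell, Pax5 and most of the surface receptors are lost, while secreted immunoglobulin, the joining chain (Jchain) and endoplasmic reticulum factors such as Mzb1 are made in very large amounts. The spleen holds both cell types. A plasma cell carries far more immunoglobulin RNA than a resting B cell, so that the same immunoglobulin level can stand for very different numbers of cells. In bulk RNA, fewer cells of a type, less RNA per cell and more of the other cells in the fraction cannot be told apart.

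The T cell identity of the fractions was checked first. Foxp3, the defining transcription factor of Tregs, lay between 692 and 1179 CPM in the 32 Treg libraries (median 1012) and between 48.4 and 186 CPM in the 16 Tcon libraries. Cd4 lay between 553 and 878 CPM in Tregs and between 465 and 922 CPM in Tcons. Together the 32 genes took 0.171% to 3.49% of all counts in the Treg libraries and 0.536% to 3.09% in the Tcon libraries. Library totals ran from 18279780 to 51238377 expected counts in Tregs and from 31311437 to 51953840 in Tcons. The lowest totals lay in isotype PBS Tregs (18279780 to 34581246), whereas the Tregs of the 3 other isotype groups held 32912469 to 49906352.

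The stretches before the RefSeq start of 4 of the genes are shown because they stand for the 2 programmes followed below. The genes are Cd79a and Blnk of the receptor pathway, Cd22 of the surface receptors, and Jchain, which is the most abundant plasma cell gene here. Each line gives the 250 bases before the RefSeq transcript start in GRCm38.p6, read 5′ to 3′ on the strand of the gene, with capitals marking motif matches. The RefSeq starts differ from the GENCODE gene bounds, so that the Cd22 and Blnk windows lie inside the GENCODE gene and the Cd79a window runs past its GENCODE start. The motifs searched on both strands were the octamer ATGCAAAT, bound by Oct factors with Pou2af1, the EBF site (TCCC and GGGA with 2 free bases between them) and the E-box CAGGTG, none of which overlaps another.
Cd79a, chr7:24897247-24897496, plus strand: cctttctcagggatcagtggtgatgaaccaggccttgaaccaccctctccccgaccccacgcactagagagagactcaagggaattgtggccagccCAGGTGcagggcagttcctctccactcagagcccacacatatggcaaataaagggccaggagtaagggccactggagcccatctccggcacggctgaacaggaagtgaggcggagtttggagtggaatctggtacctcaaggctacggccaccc
Cd22, chr7:30879029-30879278, minus strand: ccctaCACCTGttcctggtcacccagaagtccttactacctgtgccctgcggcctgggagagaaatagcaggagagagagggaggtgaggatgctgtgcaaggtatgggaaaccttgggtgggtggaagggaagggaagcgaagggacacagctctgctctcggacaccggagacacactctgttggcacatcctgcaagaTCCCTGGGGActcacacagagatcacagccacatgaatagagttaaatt
Blnk, chr19:40994222-40994471, minus strand: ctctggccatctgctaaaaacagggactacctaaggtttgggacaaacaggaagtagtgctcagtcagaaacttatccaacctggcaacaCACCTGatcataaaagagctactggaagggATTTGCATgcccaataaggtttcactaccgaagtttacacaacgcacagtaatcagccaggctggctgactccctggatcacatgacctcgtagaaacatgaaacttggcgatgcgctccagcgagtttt
Jchain, chr5:88527898-88528147, minus strand: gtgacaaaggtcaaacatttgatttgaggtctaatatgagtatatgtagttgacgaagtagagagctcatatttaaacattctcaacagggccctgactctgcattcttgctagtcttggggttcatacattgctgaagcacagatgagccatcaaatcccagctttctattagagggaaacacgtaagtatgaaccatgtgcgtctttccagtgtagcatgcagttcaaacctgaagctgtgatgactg

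The E-box stood in the Cd79a, Cd22 and Blnk windows, the EBF site in that of Cd22 and the octamer in that of Blnk, and the Jchain window held none of the 3. Of the 32 genes, 23 had an entry, and 9 had none (Cd79b, Blk, Ms4a1, Cd24a, Ighm, Ighd, Igkc, Iglc2 and Mzb1). The E-box was in 9 of the 23 windows (39.1%) and in 19.4% of all 27025 windows of this length. The octamer was in 2 of the 23 (8.70%; Blnk and Vpreb3) and in 1.81% of all windows, and the EBF site was in 1 of the 23 (4.35%) and in 0.914% of all. These are matches of letters and were not tested as binding sites.

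By length-scaled level, 5 immunoglobulin and plasma cell genes stood at the top and the B cell genes below them. In FPKM over the 32 Treg libraries, the highest medians were those of Igkc, the kappa light chain constant gene (4303, range 353 to 18838), and Ighm, the constant gene of IgM heavy chains (3634, range 742 to 12981). Jchain followed at 544, the lambda constant gene Iglc2 at 167 and Mzb1, an endoplasmic reticulum cofactor of antibody assembly, at 42.2 FPKM. Each of these ranges overlapped with that of its neighbour in the order. Iglc2 has near-identical lambda copies, so its share of reads is uncertain.

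The other 27 genes, among them Ighd and the plasma cell genes Sdc1 and Tnfrsf17, had lower medians. Cd72, an inhibitory coreceptor, came first (22.9 FPKM), then Cd79b (17.9), the octamer coactivator Pou2af1 (12.8), the surface glycoprotein Cd24a (12.0) and Cd79a (10.8). Ralgps2, an exchange factor for Ral GTPases, stood at 9.87, the plasma cell proteoglycan Sdc1 (CD138) at 7.00 and the IgM Fc receptor Fcmr at 6.91 FPKM. The IgD constant gene Ighd, the kinase Blk, the lectin Cd22, the BAFF receptor Tnfrsf13c, Blnk, Ly86 (a partner of the receptor Cd180), the BCMA gene Tnfrsf17 and Fcrla had medians from 2.56 to 6.65. Ms4a1, the scaffold Bank1, Btk, the lectin Siglecg, the Ets factor Spib, the zinc finger factor Bcl11a, Vpreb3 and Pax5 lay between 0.528 and 1.99. The lowest were the IgE receptor Fcer2a (0.229), Ebf1 (0.205) and the complement receptor Cr2 (0.108 FPKM).

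The genes differed widely in how far they varied. Between the lowest and the highest Treg library the CPM of Fcer2a differed by 2270.1-fold, that of Cr2 by 665-fold and that of Pax5 by 115-fold. The CPM of Cd72 differed by only 2.38-fold and that of Ralgps2 by 2.98-fold. Their ratios to Cd79a differed by 29.5-fold and 23.0-fold between Treg libraries, so these 2 genes did not follow Cd79a. Whether T cells make them was not tested. Fcer2a fell to 1 count in 1 library, so its fitted fold changes depend on the prior count and are not bounds. The Cr2 cell of isotype PBS Treg replicate 4 is empty in the table, and Cr2 was therefore left out of the Treg tests, which leaves 31 genes there.

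Before the groups were compared, 2 Treg libraries were seen to stand apart, namely replicate 1 of isotype PBS and replicate 1 of MHC II block with WT IL-2. In each of them all 24 genes that are neither immunoglobulin nor plasma cell genes were above every other library of the group that held a value (for Cr2 in isotype PBS, 2 libraries). Their ratio to the median of these 3 had a median over the 24 genes of 4.13 in the isotype PBS library and 5.28 in the MHC II block WT IL-2 library. Fcer2a reached 20.3 and 42.5 times that median. Of the 8 immunoglobulin and plasma cell genes, 6 were above all 3 in each library, with a median ratio of 1.28 and 1.55, so that among the 32 genes these libraries stood apart more in B cell than in plasma cell transcripts.

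Other gene lists were also high in these libraries, among them MHC class II genes, which B cells carry too. The summed CPM of 9 MHC class II genes was 2755 and 2678 in these 2 libraries and at most 1094 in the other 30 Treg libraries. That of 12 monocyte and macrophage markers was 416 and 1075, against at most 307 elsewhere, and that of 7 neutrophil markers was 38.4 and 235, against at most 36.2 elsewhere (MHC II block WT IL-2 replicate 4). The median ratio to the group mates was 6.08 and 19.2 over the monocyte and macrophage markers and 8.37 and 25.1 over the neutrophil markers. It was 0.975 and 0.833 over 10 T cell markers and 0.944 and 0.815 over 6 Treg markers. The counts of genes called in comparisons that hold these 2 libraries are given below with and without them, and so are the values of the single genes that rest on them most.

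**Figure D1:**
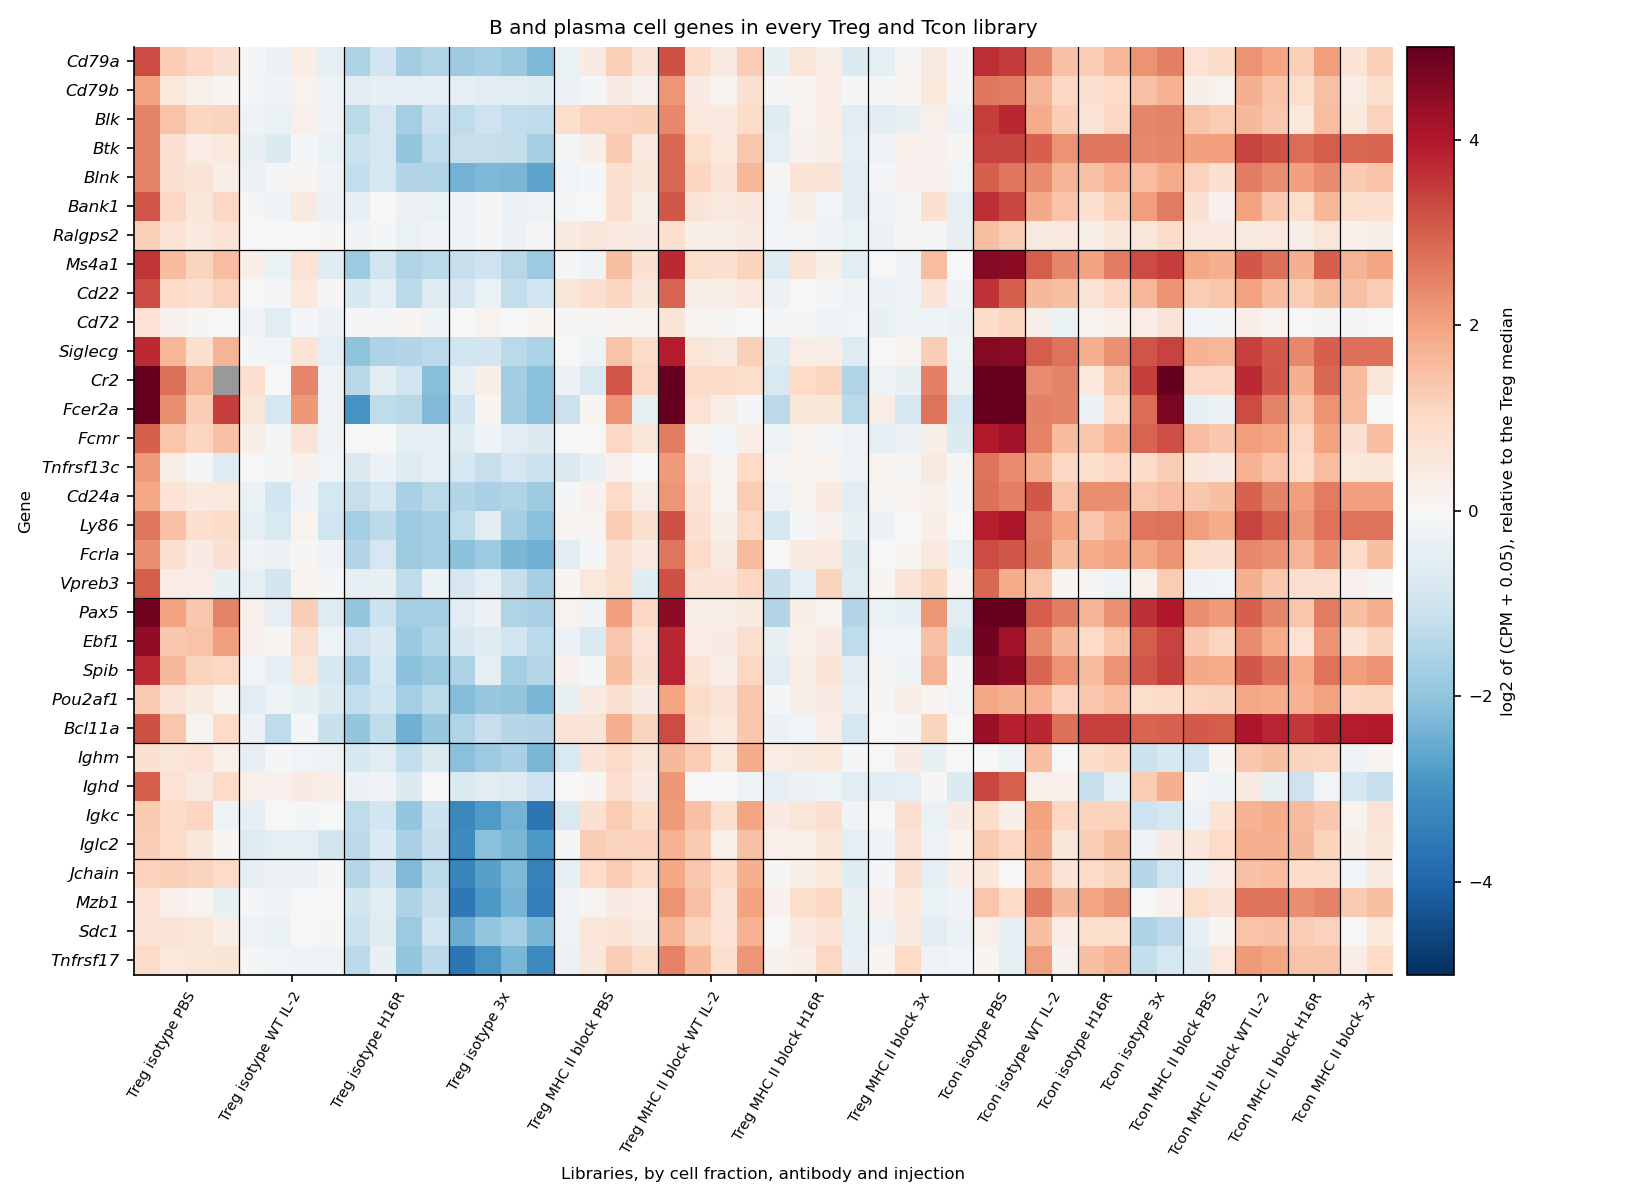
Each row is 1 of the 32 genes and each column 1 of the 48 libraries, and the colour gives log2(CPM + 0.05) relative to the median over the 32 Treg libraries (grey marks the empty cell). Replicate 1 of isotype PBS and replicate 1 of MHC II block WT IL-2 stand out among Tregs in the B cell genes, and the isotype 3x Tregs are low in the immunoglobulin and plasma cell rows.

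The first comparison asked how the B lineage signal in Tregs of isotype-treated mice differed between each IL-2 molecule and PBS. CPM is a share of the RNA of the fraction. The paper reports that the molecules raised the number of splenic Tregs in isotype-treated mice and that MHC II block strongly reduced this rise. The part of Treg number in the values of either arm was not tested. With all 3 molecules it was lower than with PBS, for B cell and plasma cell genes alike. The plasma cell and immunoglobulin sums were lowest with 3x, whereas of the 23 tested B cell genes 11 had a lower and 12 a higher fitted value with 3x than with H16R. The summed CPM of the 4 plasma cell genes was 1811, 1847, 1734 and 1523 with PBS, 634, 668, 689 and 768 with WT IL-2, 311, 436, 185 and 331 with H16R and 85.5, 127, 176 and 81.6 with 3x. The 4 groups did not overlap in this sum, and the group means fell from PBS by factors of 2.51, 5.47 and 14.7. The summed CPM of the 4 immunoglobulin genes was 9449 to 16593 with PBS, 6466 to 8347 with WT IL-2, 3309 to 5426 with H16R and 1482 to 2488 with 3x, again without overlap. The 24 B cell genes summed to 1443, 470.2, 383 and 417 CPM with PBS, 205 to 288 with WT IL-2, 148 to 183 with H16R and 145 to 172 with 3x. In that sum the H16R and 3x groups overlapped. Cd72 and Ralgps2, at no less than 29.0 and 27.8 CPM in any Treg library, made up a large part of it.

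**Figure D2:**
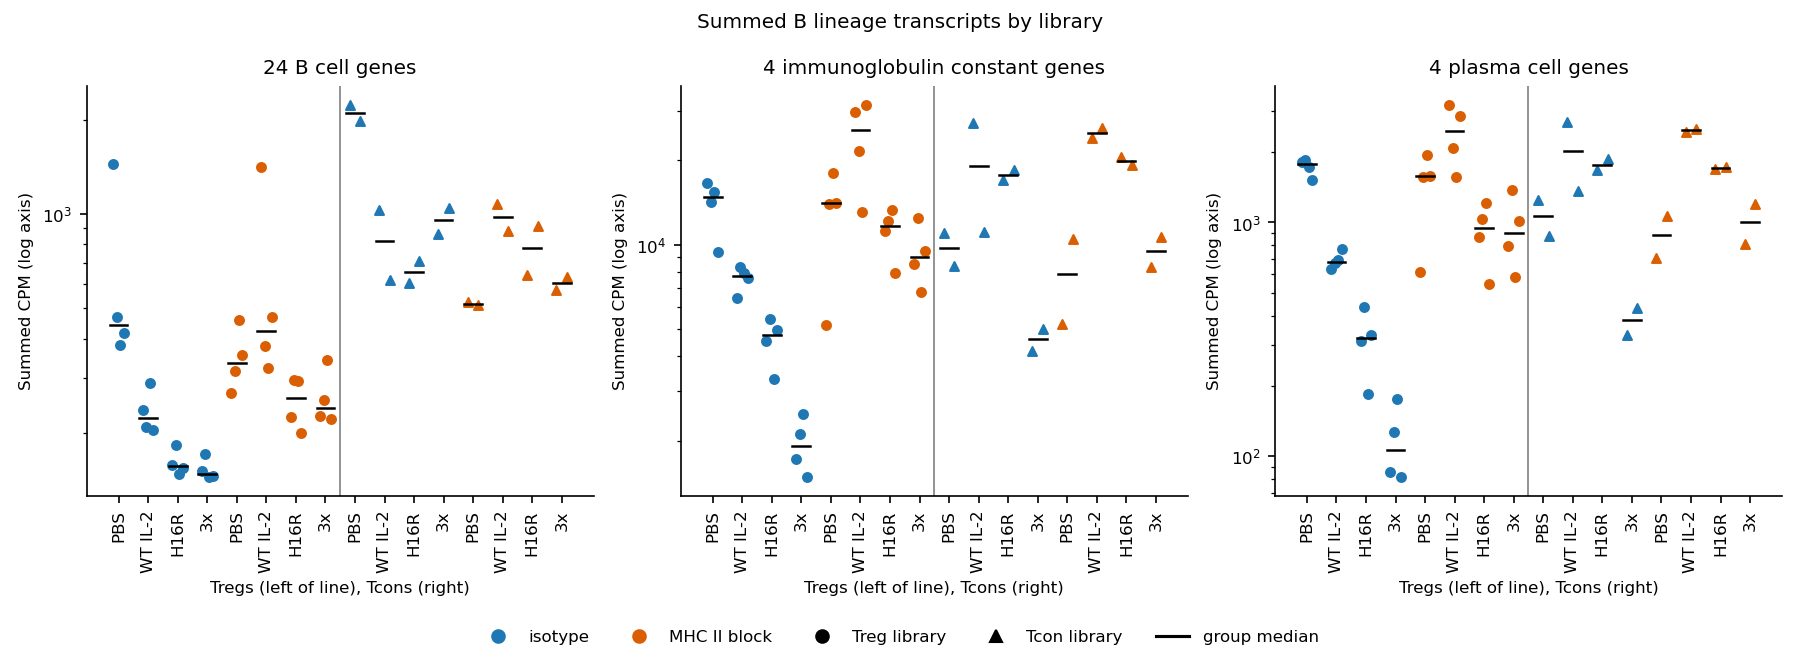
Summed CPM (log axis) of the 24 B cell genes, the 4 immunoglobulin constant genes and the 4 plasma cell genes in the 16 groups, with 1 point per library and a bar at the group median. In the isotype Tregs the plasma cell sum steps down from PBS (1523 to 1847) to 3x (81.6 to 176), whereas with MHC II block the 3x libraries (586 to 1373) lie within the range of PBS (616 to 1948) except for the lowest.

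Counted gene by gene with edgeR's quasi-likelihood test and Benjamini-Hochberg adjustment over 12404 genes (threshold 0.1), 30 of the 31 tested genes fell under WT IL-2, all 31 under H16R and 30 under 3x, and none rose. Among all tested genes 25.9%, 32.7% and 31.8% fell in these comparisons, and 52.2%, 64.2% and 63.6% changed in either direction. The median log2 fold change of the members was -1.58, -2.32 and -2.98, and that of all genes was -0.01, -0.01 and -0.00. Of the 32 genes, 25 for WT IL-2, 29 for H16R and 31 for 3x had all 4 treated libraries below all PBS libraries that held a value, as did 19.2%, 28.5% and 27.9% of all tested genes. The comparisons share the PBS group, so their counts are not independent of each other.

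The receptor chain Cd79a stood at 151, 38.3, 33.1 and 27.2 CPM with PBS, 15.2, 13.1, 20.6 and 11.2 with WT IL-2, 5.40, 8.11, 4.73 and 5.52 with H16R and 4.56, 4.97, 4.41 and 3.32 with 3x. PBS replicate 1 was far above its mates, and even without it no treated library reached the PBS group. With 3x the log2 fold change was -3.82 ± 0.56, adjusted p = 1.5e-06. Pax5 showed the same order of PBS and treated libraries, at 106, 15.0, 9.37 and 20.6 CPM with PBS and 2.32 to 8.70 with WT IL-2, 0.921 to 1.73 with H16R and 1.15 to 2.96 with 3x. Its log2 fold change was -3.04 ± 0.88, adjusted p = 0.0061 with WT IL-2, -4.93 ± 1.01, adjusted p = 0.00015 with H16R and -4.24 ± 0.95, adjusted p = 0.0004 with 3x.

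Fcer2a had the largest fitted change of the members with each molecule. It stood at 55.0, 2.83, 1.26 and 6.18 CPM with PBS, 0.268 to 2.53 with WT IL-2, 0.0242 to 0.182 with H16R and 0.0840 to 0.550 with 3x, and the WT IL-2 libraries overlapped with PBS. Its log2 fold changes were -3.98 ± 1.18, -7.14 ± 1.55 and -6.05 ± 1.39 (adjusted p = 0.0074, 0.00028 and 0.00052). The transcription regulators fell together, all 5 with each molecule. Ebf1, which opens the B cell programme, changed by -2.73 ± 0.72, -4.31 ± 0.81 and -3.96 ± 0.78 on the log2 scale, and Spib by -2.48 ± 0.68 and -3.96 ± 0.76 with WT IL-2 and H16R. Bcl11a, a factor of early B cell development, changed by -2.52 ± 0.56, adjusted p = 0.00056 with WT IL-2, and Siglecg, a lectin that dampens receptor signals, by -3.996 ± 0.71 with H16R.

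These genes had the same order of groups as Pax5, highest with PBS and lowest with H16R or 3x. Ebf1 was at 2.68 to 23.4 CPM with PBS, 0.867 to 1.82 with WT IL-2, 0.247 to 0.608 with H16R and 0.378 to 0.655 with 3x. Spib was at 7.06 to 46.1 CPM with PBS, 1.91 to 5.19 with WT IL-2, 0.781 to 1.79 with H16R and 1.00 to 2.38 with 3x. Siglecg was at 5.79 to 43.8 CPM with PBS, 2.36 to 5.35 with WT IL-2, 0.775 to 1.25 with H16R and 1.05 to 1.70 with 3x. In each of the 3 genes all treated libraries lay below all PBS libraries, and H16R and 3x overlapped. With MHC II block Ebf1 was at 0.618 to 2.74 CPM with PBS and 1.36 to 14.9 with WT IL-2 and Spib at 3.22 to 9.77 and 4.22 to 48.0, and these groups overlapped.

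The plasma cell genes separated 3x from the others, apart from Sdc1. In Sdc1, 3x replicate 3 (2.18 FPKM) lay above H16R replicate 3 (1.91 FPKM). Jchain stood at 1710.3, 1766, 1658 and 1465 CPM with PBS, 579, 617, 630.1 and 706 with WT IL-2, 281, 394, 166 and 303 with H16R and 78.7, 117, 162 and 73.8 with 3x, with no overlap between any of the 4 groups. Its log2 fold change from PBS was -1.35 ± 0.31, adjusted p = 0.0009 with WT IL-2, -2.47 ± 0.32, adjusted p = 2.7e-07 with H16R and -3.87 ± 0.34, adjusted p = 3.3e-10 with 3x. Tnfrsf17, the receptor through which plasma cells receive survival signals, stood at 4.57, 3.37, 3.51 and 3.67 CPM with PBS and 0.143, 0.262, 0.441 and 0.210 with 3x, a log2 fold change of -3.76 ± 0.44, adjusted p = 4.7e-08. Igkc went from 5661, 4508, 4902 and 1929.8 to 246, 324, 447 and 189 CPM (-3.76 ± 0.39, adjusted p = 6.5e-09).

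Mzb1 and Cd72 were the exceptions. Mzb1 was at 63.7, 46.0, 42.7 and 29.4 CPM with PBS and 36.0, 33.3, 37.5 and 39.5 with WT IL-2, overlapping groups with a log2 fold change of -0.29 ± 0.30, adjusted p = 0.45, although it fell with H16R (-1.19 ± 0.31, adjusted p = 0.0019) and 3x (-3.16 ± 0.35, adjusted p = 1.9e-08). Cd72 was at 68.9, 47.8, 42.7 and 42.5 CPM with PBS and 42.0, 47.3, 41.5 and 44.1 with 3x (-0.15 ± 0.13, adjusted p = 0.31). Its fall with H16R was small (-0.29 ± 0.13, adjusted p = 0.053).

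Without both libraries that stand apart, 27, 28 and 30 of the 31 genes fell with WT IL-2, H16R and 3x, all of them also called with every library in. The members' median then was -0.85, -1.74 and -2.46. Pax5 with WT IL-2 then gave -1.68 ± 0.58, adjusted p = 0.02 and Fcer2a -1.68 ± 0.79, adjusted p = 0.083. With H16R and 3x Pax5 gave -3.57 ± 0.66 and -2.89 ± 0.62, Fcer2a -4.83 ± 1.03 and -3.74 ± 0.91, and Ebf1 -2.96 ± 0.50 and -2.62 ± 0.48, all still past the threshold. When isotype PBS replicate 1 alone was left out, 19 of the 31 fell with WT IL-2.

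Other lists moved beside them. MHC class II genes, of which 7, 8 and 8 of 9 fell with WT IL-2, H16R and 3x, summed to 874 to 2755 CPM with PBS and 563 to 737, 348 to 430.3 and 289.9 to 348 with the molecules. Of 11 tested monocyte and macrophage markers 5, 10 and 10 fell, and their sum was 267 to 416 CPM with PBS and 191 to 222, 163 to 184 and 148 to 172. Of 6 tested Treg markers 5 rose with each molecule. The part of these lists, and of the lower totals of the PBS libraries, in the fall of the B lineage genes was not tested. Of 20 other B cell genes 12, 15 and 14 fell, and of 12 other plasma cell genes 2, 8 and 9, the 2 with WT IL-2 being a smaller share than that of all genes.

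With MHC II block the picture differed. More genes rose than fell with WT IL-2, an excess that rested in part on its replicate 1, and with each mutein the genes that were called fell. The plasma cell genes summed to 616, 1566, 1948 and 1581 CPM with PBS, 3191, 2085, 1563 and 2859.5 with WT IL-2, 867, 1036, 1212 and 547 with H16R and 792, 1373, 586 and 1016 with 3x. All of these groups overlapped with PBS. PBS replicate 1 was low in its group, at 5171, 14017, 18027 and 14027 CPM over the 4 libraries for the immunoglobulin sum. The 24 B cell genes summed to 267 to 459 CPM with PBS, 1412, 378, 323 and 470.2 with WT IL-2, 199.5 to 295 with H16R and 221 to 342 with 3x.

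By edgeR's test 22 of 31 genes rose with WT IL-2 and none fell, in a comparison in which 22.0% of all genes rose and 35.7% changed in either direction. With H16R and with 3x, 5 of 31 fell and none rose, against 32.6% and 37.3% of all genes falling and 66.2% and 72.9% changing in either direction, so the shares of members called were below those of all genes. The members' median log2 fold change was 1.16, -0.49 and -0.33 (all genes 0.02, -0.01 and -0.02). Only 2 of the 32 genes with WT IL-2 had all 4 libraries above PBS, and 6 with H16R and 3 with 3x had all 4 below, where 10.5%, 33.2% and 35.5% of all tested genes did.

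All 4 plasma cell genes rose with WT IL-2. Mzb1 was at 34.3, 41.8, 51.8 and 49.8 CPM with PBS and 185, 106, 62.5 and 156 with WT IL-2, each above every PBS library, a log2 fold change of 1.57 ± 0.30, adjusted p = 0.00032. Sdc1 was at 16.5, 29.8, 32.0 and 27.1 and 64.5, 42.3, 32.7 and 66.0 CPM (1.01 ± 0.25, adjusted p = 0.0039). Jchain was at 563, 1490.4, 1859 and 1499 and 2929, 1929, 1463 and 2627 CPM, with WT IL-2 replicate 3 inside the PBS range (0.78 ± 0.31, adjusted p = 0.06). The B cell genes with the largest change rested on WT IL-2 replicate 1. Fcer2a was at 0.218, 0.553, 2.61 and 0.385 CPM with PBS and 28.2, 0.882, 0.664 and 0.484 with WT IL-2, so that 1 library was high and the other 3 lay within the PBS range. Its log2 fold change was 2.96 ± 1.18, adjusted p = 0.061, and those of Ebf1, Siglecg, Vpreb3 (a relative of the surrogate light chain) and Ms4a1 were 1.72 ± 0.71, 1.69 ± 0.61, 1.63 ± 0.65 and 1.62 ± 0.58.

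Without WT IL-2 replicate 1, 7 of the 31 rose, a share near the 17.6% of all genes that then rose, and Fcer2a turned to -0.53. With both libraries that stand apart left out, 10 rose (21.3% of all genes) and 1 fell (13.5% of all; Ighd, -0.39 ± 0.17, adjusted p = 0.091), and the members' median was 0.31. Mzb1 then gave 1.33 ± 0.29, adjusted p = 0.0012 and Sdc1 0.87 ± 0.26, adjusted p = 0.015. Without MHC II block PBS replicate 1, 10 rose. Monocyte and macrophage markers rose in 10 of 11 and neutrophil markers in 6 of 6 in this comparison, and their sums in WT IL-2 replicate 4 were 307 and 36.2 CPM. Their part in the result was not tested.

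With the muteins the genes that fell were few. Blk, a Src family kinase of B cells, was at 17.6, 21.3, 21.3 and 22.0 CPM with PBS, 6.40, 11.0, 12.5 and 6.71 with H16R and 6.70, 7.44, 11.7 and 7.84 with 3x, below every PBS library. Its log2 fold changes were -1.10 ± 0.34, adjusted p = 0.0064 with H16R and -1.25 ± 0.34, adjusted p = 0.0019 with 3x. Ralgps2 was at 48.8 to 55.1 CPM with PBS, 29.4 to 38.3 with H16R and 27.8 to 35.2 with 3x (-0.58 ± 0.12, adjusted p = 0.00011 and -0.65 ± 0.12, adjusted p = 1.8e-05). Iglc2 fell with both (-0.67 ± 0.30 and -0.76 ± 0.30), Bcl11a and Jchain with H16R (-1.26 ± 0.55 and -0.63 ± 0.31), and Cd72 and Sdc1 with 3x (-0.33 ± 0.13 and -0.49 ± 0.26). Single libraries moved these counts. With H16R it was 2 without MHC II block PBS replicate 3, 3 without PBS replicate 2, PBS replicate 4 or H16R replicate 4 of this arm, and 8 without WT IL-2 replicate 1. With 3x it was 8 without MHC II block PBS replicate 1 or 3x replicate 2 and 9 without WT IL-2 replicate 1. With both libraries that stand apart left out, 13 fell with H16R (35.8% of all genes), and with 3x 13 fell (39.8%) and 1 rose (Tnfrsf13c, 35.7%). Neither library is in the groups compared. All groups share 1 estimate of the spread, and the cause of the higher counts was not tested.

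**Figure D3:**
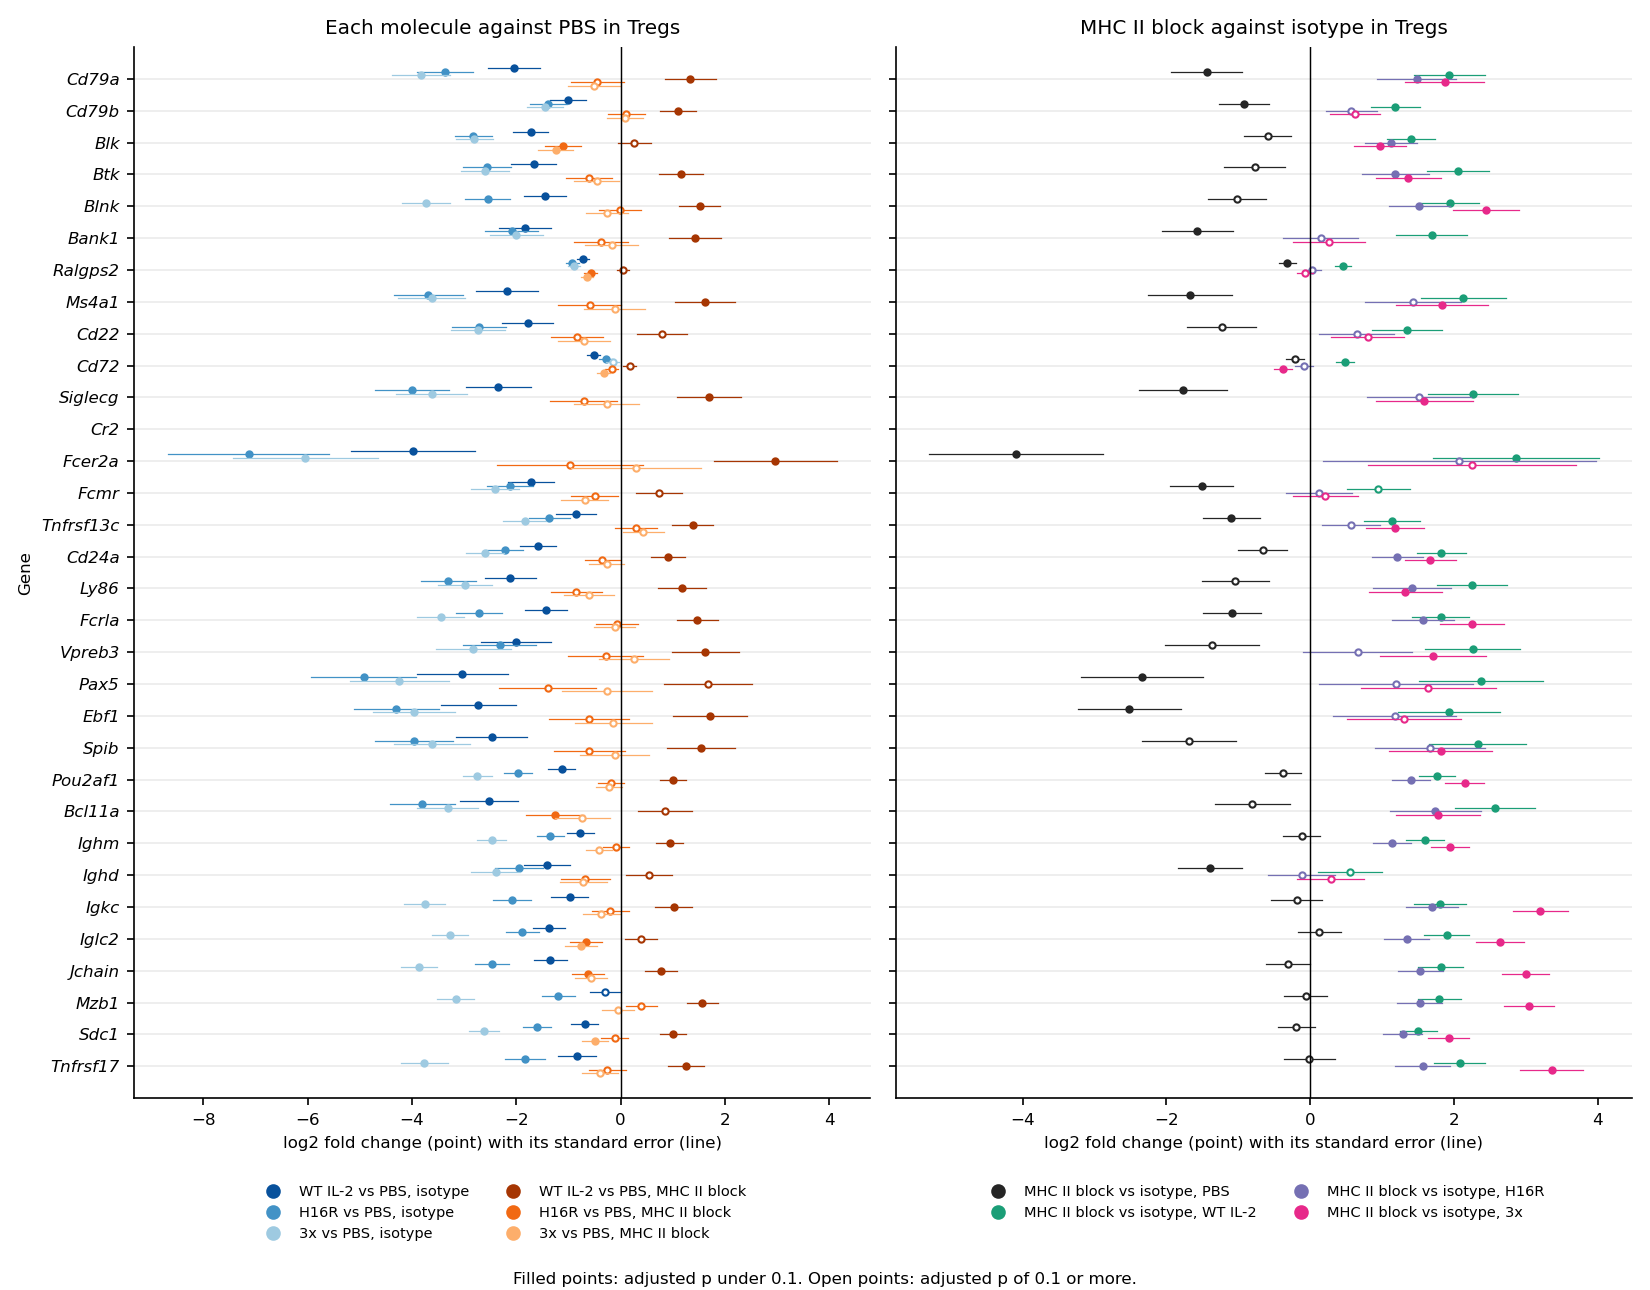
Log2 fold change from PBS (± SE) of the 31 tested genes with WT IL-2, H16R and 3x in isotype and in MHC II block Tregs, with filled points for adjusted p under 0.1. In the isotype arm every point lies below 0, with Fcer2a lowest, and in the MHC II block arm the WT IL-2 points lie mostly above 0 and the called mutein points below it.

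The next comparison set MHC II block against isotype under each injection. With PBS 12 of the 23 tested B cell genes were lower with MHC II block, a result that rested on isotype PBS replicate 1, and no plasma cell gene passed the test. With each IL-2 molecule most genes that were called were higher with MHC II block, and with 3x the plasma cell genes Tnfrsf17, Mzb1 and Jchain and the light chain gene Igkc differed most. With PBS 13 of 31 fell (8.13% of all genes fell and 14.1% changed), with WT IL-2 29 of 31 rose (18.0% of all rose, 33.6% changed), with H16R 16 rose (16.4%, 30.3% changed), and with 3x 21 rose and 1 fell (28.1% and 26.1%, 54.2% changed). The members' median was -1.02, 1.82, 1.29 and 1.71, and that of all genes -0.01, 0.01, 0.01 and 0.00. All 4 libraries of 1 group lay beyond all of the other for 1 gene with PBS (lower), 21 with WT IL-2 (higher), 21 with H16R (higher) and 24 with 3x (23 higher, 1 lower). Over all tested genes these shares were 5.73%, 12.2% and 16.7%, and with 3x 26.3% higher and 15.8% lower.

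With PBS the 13 genes were 4 of the receptor pathway (Cd79a, Cd79b, Bank1 and Ralgps2), 6 surface receptors, Pax5 and Ebf1, and Ighd, which marks naive B cells. Ms4a1 was at 73.3, 18.5, 13.4 and 17.9 CPM with isotype and 5.89, 5.53, 17.4 and 10.6 with MHC II block (-1.67 ± 0.58, adjusted p = 0.071), and Pax5 gave -2.34 ± 0.85, adjusted p = 0.084. Fcer2a (-4.09 ± 1.21), Ebf1 (-2.52 ± 0.72) and Siglecg (-1.77 ± 0.62) had the other large values. Jchain was at 1710.3, 1766, 1658 and 1465 CPM with isotype and 563, 1490.4, 1859 and 1499 with MHC II block, overlapping groups (-0.31 ± 0.31, adjusted p = 0.59). Leaving out isotype PBS replicate 1 left 0 of the 13, and without both libraries that stand apart 2 were called, Fcmr (-0.84 ± 0.23, adjusted p = 0.015) and Ebf1 (-1.15 ± 0.45, adjusted p = 0.09). The count was 3, 3 and 5 without MHC II block PBS replicates 1, 2 and 4.

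With WT IL-2 the genes that rose covered every role. Pou2af1, the coactivator that B cells and plasma cells both use, was at 22.9, 27.6, 25.6 and 20.2 CPM with isotype and 129.8, 62.8, 51.0 and 85.2 with MHC II block, with no overlap. Its log2 difference was 1.76 ± 0.25, adjusted p = 1.2e-05. Bcl11a (2.58 ± 0.56, adjusted p = 0.00097), Spib (2.33 ± 0.67), Siglecg (2.26 ± 0.62), Pax5 (2.38 ± 0.86) and Fcer2a (2.86 ± 1.15) were also higher. Tnfrsf17 was at 2.14, 2.07, 2.06 and 2.02 and 13.1, 7.20, 4.27 and 10.8 CPM (2.08 ± 0.35, adjusted p = 8.2e-05) and Jchain at 579, 617, 630.1 and 706 and 2929, 1929, 1463 and 2627 CPM (1.82 ± 0.32, adjusted p = 1.0e-04), each without overlap. When both libraries that stand apart were left out 22 rose and the median was 0.98, and without MHC II block WT IL-2 replicate 1 alone 17 rose and Fcer2a turned to -0.63. All 11 tested monocyte and macrophage markers rose here as well, with a sum of 191 to 222 CPM in the isotype and 244 to 1075 CPM in the MHC II block libraries and none of the list at 0 throughout a group. Their part in the result was not tested.

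With H16R the 16 genes were the 4 plasma cell genes, Ighm, Igkc and Iglc2, and 9 B cell genes. Igkc was at 954, 1179.8, 607 and 1106 CPM with isotype and 3054, 3468, 4050.1 and 2020.5 with MHC II block (1.70 ± 0.36, adjusted p = 0.0019). Jchain was at 281, 394, 166 and 303 and 799, 934, 1097 and 501 CPM (1.53 ± 0.31, adjusted p = 0.0013), and Blnk, the adaptor behind the receptor, at 2.98, 3.86, 2.53 and 2.45 and 7.26, 11.1, 11.0 and 4.85 CPM (1.52 ± 0.43, adjusted p = 0.013). In each of these 3 the groups did not overlap. Bcl11a (1.74 ± 0.63), Fcrla, an intracellular Fc receptor-like protein (1.57 ± 0.43), and Tnfrsf17 (1.56 ± 0.38) had the other large differences.

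With 3x the plasma cell and immunoglobulin genes led, apart from Ighd. Ighd was at 3.26 to 4.64 FPKM with isotype and 4.10 to 6.99 with MHC II block, overlapping groups. Jchain was at 78.7, 117, 162 and 73.8 CPM with isotype and 729, 1285, 539.9 and 963 with MHC II block, a log2 difference of 2.99 ± 0.33, adjusted p = 5.8e-08. Mzb1 was at 3.23, 5.21, 7.59 and 3.59 and 44.7, 56.2, 30.9 and 34.1 CPM (3.05 ± 0.35, adjusted p = 1.0e-07), and Tnfrsf17 at 0.143, 0.262, 0.441 and 0.210 and 2.49, 4.69, 1.92 and 2.13 CPM (3.36 ± 0.44, adjusted p = 7.7e-07). Igkc gave 3.20 ± 0.38, below only Tnfrsf17 among the members, and Iglc2 2.64 ± 0.33, and in all 5 of these genes every MHC II block library was above every isotype library. The plasma cell sum was 8.00 times and the immunoglobulin sum 4.79 times that of isotype 3x, whereas the sum of the 24 B cell genes was 1.71 times as high. That sum holds Cd72 and Ralgps2, which make up a large part of it, and within it the receptor chains and signalling genes were 1.53 times, the surface receptors 1.47 times and the transcription regulators 4.07 times as high. Other gene lists were also higher with MHC II block. The monocyte and macrophage sum was 148 to 172 CPM with isotype and 209 to 239.8 with MHC II block under 3x, and 163 to 184 and 207 to 250.1 under H16R. The MHC class II sum was 289.9 to 348 and 466 to 571 CPM under 3x and 348 to 430.3 and 512 to 703 under H16R. Isotype and MHC II block libraries did not overlap in any of these sums, and their part in the result was not tested. Among the 32 genes Cd72 went the other way, from 42.0, 47.3, 41.5 and 44.1 to 32.3, 36.1, 35.5 and 33.9 CPM (-0.38 ± 0.13, adjusted p = 0.015).

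Whether the change from PBS differed between the antibody arms was tested as an interaction, which is positive where the change was higher with MHC II block. It was positive past the threshold for 31 of 31 genes under WT IL-2, 26 under H16R and 29 under 3x, where 11.6%, 11.1% and 20.9% of all genes were, and negative for none. Over all genes 19.7%, 18.5% and 38.9% were called in either direction. The members' median was 2.48, 1.88 and 2.52 on the log2 scale, that of all genes 0.01, 0.02 and 0.01. With WT IL-2 the values ran from 0.69 ± 0.18 (Cd72) to 6.95 ± 1.67 (Fcer2a), with Pax5 at 4.72 ± 1.21, Ebf1 at 4.45 ± 1.01, Siglecg at 4.03 ± 0.88 and Spib at 4.01 ± 0.94. Pou2af1 gave 2.14 ± 0.36, adjusted p = 0.00023. With H16R the 5 largest values were those of Fcer2a (6.16 ± 2.19, adjusted p = 0.066), Ebf1 (3.69 ± 1.11), Pax5 (3.53 ± 1.36), Spib (3.36 ± 1.01) and Siglecg (3.28 ± 0.95), and Ralgps2, Vpreb3, Ighd, Bank1 and Cd72 were not called. With 3x Jchain gave 3.30 ± 0.45, adjusted p = 7.3e-06 and Igkc 3.39 ± 0.51, adjusted p = 2.8e-05, beside Fcer2a (6.34 ± 1.85), Pax5 (3.98 ± 1.26), Ebf1 (3.82 ± 1.06), Ms4a1 (3.51 ± 0.87) and Spib (3.50 ± 0.97). Ralgps2 and Cd72 were not called. Without both libraries that stand apart 22, 23 and 29 were positive, and with 3x Cd72 was negative (-0.38 ± 0.10, adjusted p = 0.0077). With WT IL-2 Fcer2a (1.18 ± 1.17, adjusted p = 0.53), Pax5 (1.01 ± 0.82, adjusted p = 0.43), Ebf1 (1.43 ± 0.63, adjusted p = 0.13) and Spib (1.35 ± 0.60, adjusted p = 0.13) were then not called, whereas Siglecg was (1.48 ± 0.51, adjusted p = 0.053). With H16R Pax5 was not called (2.16 ± 0.88, adjusted p = 0.12), and with 3x Pax5 gave 2.61 ± 0.82, adjusted p = 0.018. Without isotype PBS replicate 1 alone the count with H16R was 15.

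The IL-2 molecules were then compared with each other, in 6 pairs over both arms. In the isotype arm the order of plasma cell transcripts was WT IL-2, H16R, 3x from high to low, and of the 23 tested B cell genes only Pou2af1 differed between H16R and 3x by the test. H16R against WT IL-2 gave 9 of 31 lower and none higher (9.89% of all genes were lower and 18.6% were called), 3x against WT IL-2 gave 15 lower and 1 higher (17.5% and 17.4%, 34.9% called), and 3x against H16R gave 8 lower (5.55%, 11.6% called). The members' median was -0.94, -1.21 and -0.29, against -0.00, 0.00 and 0.00 over all genes. In 26, 24 and 10 of the 32 genes the libraries of the 2 groups did not overlap, against 20.4%, 30.7% and 18.2% of all tested genes.

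From the values given above, Jchain in H16R libraries was below every WT IL-2 library and in 3x libraries below every H16R library. The log2 difference was -1.12 ± 0.31, adjusted p = 0.018 for H16R against WT IL-2, -2.53 ± 0.33, adjusted p = 2.9e-06 for 3x against WT IL-2 and -1.41 ± 0.31, adjusted p = 0.0069 for 3x against H16R. Mzb1 was at 36.0, 33.3, 37.5 and 39.5 CPM with WT IL-2, 20.1, 27.0, 13.1 and 17.1 with H16R and 3.23, 5.21, 7.59 and 3.59 with 3x, and its 3x against H16R difference was -1.97 ± 0.35, adjusted p = 0.0014. The 8 genes that were lower with 3x than with H16R were all 4 plasma cell genes, Igkc, Ighm, Iglc2 and Pou2af1. Tnfrsf17 gave -1.93 ± 0.46, Igkc -1.68 ± 0.36 and Iglc2 -1.38 ± 0.33. Ighm was at 3539, 4171, 2661 and 3785 CPM with H16R and 1449, 1761, 2013 and 1272 with 3x, with no overlap (-1.13 ± 0.26, adjusted p = 0.0081).

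The 9 genes that H16R held below WT IL-2 were the 4 plasma cell genes, Igkc, Pou2af1, Fcrla (-1.29 ± 0.43), Blnk (-1.11 ± 0.43) and Blk (-1.09 ± 0.36). Blnk was at 5.75, 6.66, 7.39 and 6.00 CPM with WT IL-2, 2.98, 3.86, 2.53 and 2.45 with H16R and 1.33, 1.41, 1.40 and 1.07 with 3x, with no overlap among the 3, and 3x against WT IL-2 gave -2.28 ± 0.46, adjusted p = 0.00053. Tnfrsf17 (-2.93 ± 0.44), Mzb1 (-2.87 ± 0.35) and Igkc (-2.79 ± 0.38) were the largest differences of 3x from WT IL-2 among the members. Cd72 was the 1 gene that was higher, at 36.8, 29.0, 38.5 and 33.9 CPM with WT IL-2 and 42.0, 47.3, 41.5 and 44.1 with 3x (0.37 ± 0.13, adjusted p = 0.029). The count for H16R against WT IL-2 depended on single libraries, with 0 of 31 without isotype H16R replicate 3, 5 without isotype H16R replicate 4 and 15 without MHC II block WT IL-2 replicate 1. Without both libraries that stand apart H16R differed from WT IL-2 in 26 and 3x in 28 genes, in each case with Cd72 as the only one higher.

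In the MHC II block arm both muteins were lower than WT IL-2 in 31 of 31 genes, where 30.6% and 37.3% of all genes were and 57.3% and 68.3% were called in either direction. Over the members the median was -1.51 with H16R and -1.51 with 3x, and -0.03 and -0.05 over all genes. Ms4a1 was at 82.9, 11.5, 11.1 and 13.3 CPM with WT IL-2, 3.97, 9.65, 7.65 and 4.21 with H16R and 6.02, 5.47, 18.0 and 6.33 with 3x, so that the 3x group overlapped with WT IL-2 through its replicate 3. Its log2 difference was -2.21 ± 0.60, adjusted p = 0.0038 for H16R. Fcer2a (-3.94 ± 1.29 and -2.67 ± 1.15), Pax5 (-3.08 ± 0.92 and -1.94 ± 0.85), Siglecg (-2.40 ± 0.64 and -1.95 ± 0.62) and Ebf1 (-2.33 ± 0.74 and -1.86 ± 0.71) were lower in both, and Cd79a was lower with 3x by -1.85 ± 0.50, adjusted p = 0.0022. Without MHC II block WT IL-2 replicate 1, 16 of 31 were lower with each mutein, and for 3x against WT IL-2 Fcer2a turned to 0.80 and Pax5 to 0.42. The count was 24 and 22 without both libraries that stand apart.

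H16R and 3x were not told apart in the MHC II block arm. Of the 31 genes 0 passed the threshold by edgeR's quasi-likelihood test, 0 had an unadjusted p under 0.05 and 0 passed by DESeq2, where 25.1% of all genes were called by edgeR. The values were higher with 3x in 15 genes and lower in 16, with a median of -0.02. The 95% intervals of the single differences (1.96 SE to each side) reached from -1.41 to 3.95 on the log2 scale over the genes, and the SE had a median of 0.402, so that differences of that order could not be seen. Jchain was at 799, 934, 1097 and 501 CPM with H16R and 729, 1285, 539.9 and 963 with 3x. Igkc was at 3054, 3468, 4050.1 and 2020.5 and 2329, 4095, 1830.1 and 3071 CPM, and both genes overlapped between the groups. Leaving out MHC II block 3x replicate 2 gave 1 call.

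The balance of plasma cell against B cell transcripts was followed as the ratio of Jchain to Ms4a1 within a library. As a description, this CPM ratio lay between 23.3 and 270 in Tregs (median 120) and between 4.82 and 67.8 in Tcons (median 37.9). In isotype Tregs its group median was 88.6 with PBS, 99.6 for WT IL-2, 127 for H16R and 41.0 for 3x. With MHC II block it was 124, 150, 131 and 137. In isotype Tcons it was 6.63 with PBS and 5.16 with 3x, and in the 6 other Tcon groups between 36.1 and 51.3. The lowest Treg ratio was in isotype PBS replicate 1, and that of MHC II block WT IL-2 replicate 1 was 35.3 in a group whose highest was 197. Without these 2 libraries the medians of their groups were 95.5 and 168.

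Ratios within the secretory genes also differed between groups. Mzb1 over Jchain had a median of 0.0556 in Tregs and 0.111 in Tcons. Sdc1 over Jchain had a median of 0.0182 in isotype PBS Tregs and 0.0440 in isotype 3x Tregs, with ranges of 0.0170 to 0.0187 and 0.0373 to 0.0549 that did not overlap. Igkc over Ighm had medians of 0.477 and 0.177 in the same 2 groups. The constant genes of the heavy chains also came apart, since Ighm over Ighd ranged from 50.4 in an isotype PBS Tcon library to 2255 in an MHC II block H16R Tcon library.

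**Figure D4:**
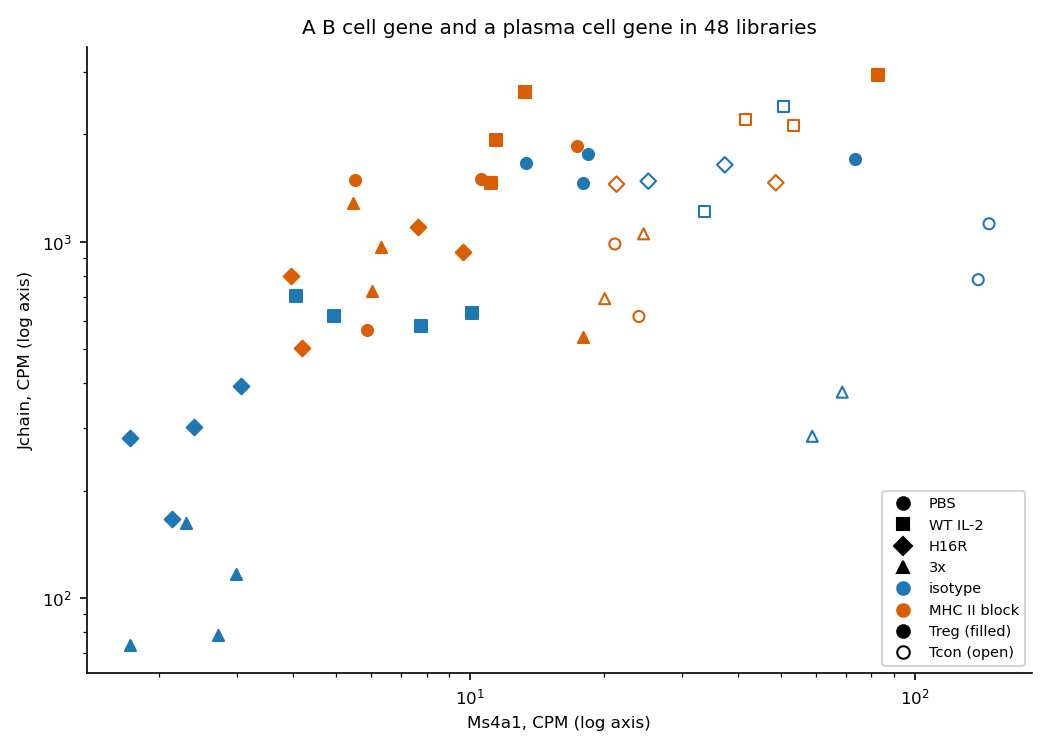
Jchain against Ms4a1 in the 48 libraries, both in CPM on log axes, with Tregs and Tcons of each group marked. The isotype 3x Tregs lie at the low end of Jchain (73.8 to 162), and the isotype PBS and isotype 3x Tcons lie at high Ms4a1 for their Jchain.

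Tregs were compared with the Tcons of the same 16 mice, with the mouse as a block. Single B cell genes were higher in Tcons in 11 (Vpreb3) to 16 of 16 mice. The immunoglobulin and plasma cell genes were so in 6 (Ighd) to 14 (Iglc2) mice, apart from Mzb1 in 16. The sum of the 24 B cell genes was higher in Tcons in 15 of 16 mice, with a Tcon over Treg ratio from 0.761 to 6.11 (median 2.89), and the exception was replicate 1 of MHC II block with WT IL-2. The immunoglobulin sum was higher in Tcons in 10 of 16 mice (0.590 to 4.20, median 1.27) and the plasma cell sum in 11 of 16 (0.473 to 5.38, median 1.44). By edgeR's test 29 of 32 genes were lower in Tregs and none higher, with 40.1% of all 12856 tested genes lower and 75.6% called. Over the members the median log2 difference was -1.53 and over all genes -0.02. Other gene lists, among them MHC class II genes, which B cells carry too, were also higher in Tcons. By the same test 8 of 9 MHC class II genes, 8 of 12 monocyte and macrophage markers, 7 of 7 neutrophil, 7 of 7 dendritic cell, 7 of 8 plasmacytoid dendritic cell and 6 of 6 NK cell markers were lower in Tregs. The MHC class II sum was 289.9 to 2755 CPM in Tregs and 652 to 3953 CPM in Tcons, and the NK cell sum 9.54 to 65.5 and 58.3 to 216 CPM. Their part in the result was not tested.

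**Figure D5:**
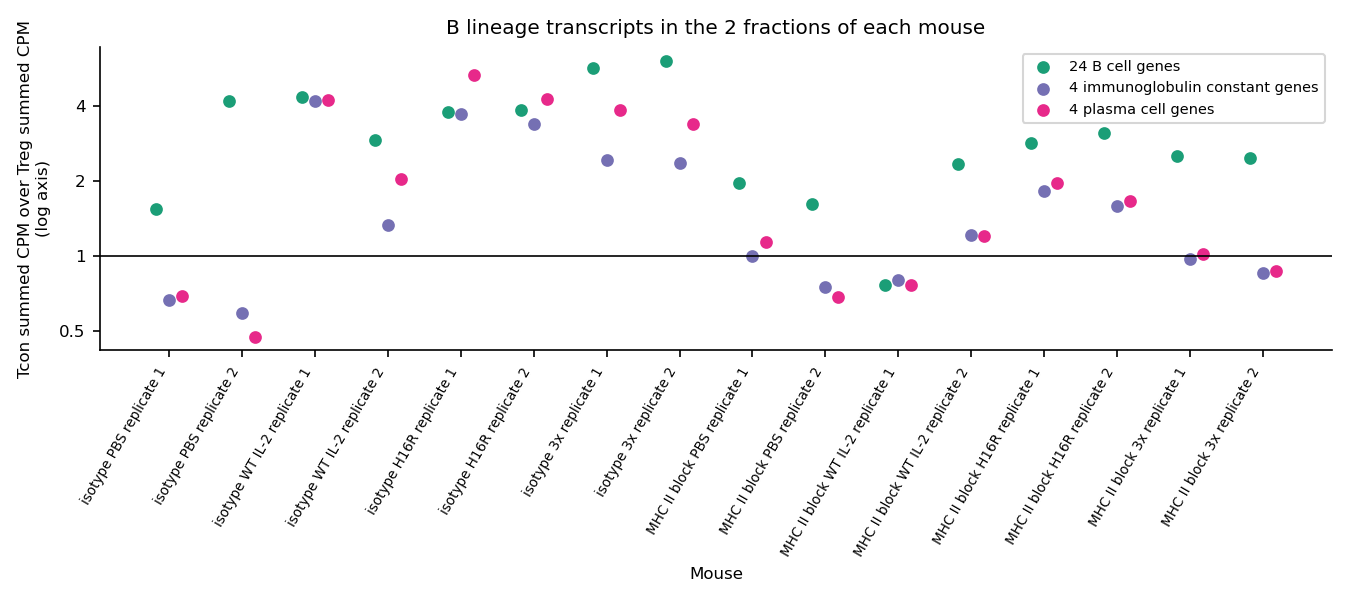
Ratio of the Tcon to the Treg sum in CPM (log axis) for the 24 B cell genes, the 4 immunoglobulin genes and the 4 plasma cell genes in each of the 16 mice, with a line at a ratio of 1. The B cell ratio lies below 1 only in MHC II block WT IL-2 replicate 1 (0.761), and the plasma cell ratio runs from 0.473 to 5.38.

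Bcl11a had the largest difference. It was at 47.5 and 36.2 CPM in isotype PBS Tcons, 26.2 and 25.5 with H16R and 18.2 and 18.6 with 3x, and the same mice held 22.2 and 6.10, 0.582 and 0.942, and 0.797 and 1.05 CPM in their Tregs. It was higher in Tcons in 16 of 16 mice, by 1.70 to 45.0 times, with a log2 difference of -3.29 ± 0.31, adjusted p = 2.3e-08. In Tcons Bcl11a did not follow Pax5. It was at 12.6 and 9.91 FPKM in isotype PBS and 11.1 and 11.0 in MHC II block 3x Tcons, where Pax5 was at 21.8 and 16.3 and at 1.37 and 1.89. Its ratio to Cd79a reached 1.43 in Tcons and 0.306 in Tregs. Which cells held the Bcl11a RNA of Tcons was not tested. Btk, the kinase that joins the receptor to calcium signals, was higher in Tcons in 16 of 16 mice (1.44 to 13.5 times, -2.61 ± 0.23, adjusted p = 8.3e-09), and so were Cd24a, Ly86 (-2.48 ± 0.22) and Mzb1. Siglecg (-2.58 ± 0.30) and Pax5 (-2.42 ± 0.34) were higher in 15. The genes not called were Vpreb3 (-0.48 ± 0.27, adjusted p = 0.12), Ighm (-0.30 ± 0.21, adjusted p = 0.2) and Ighd (-0.03 ± 0.27, adjusted p = 0.92), and Ighd was higher in Tcons in 6 of 16 mice. Without the mouse of either library that stands apart 30 of the 32 were lower in Tregs, with Bcl11a at -3.45 and -3.47 and Pax5 at -2.56 and -2.64.

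Ighm, Jchain, Tnfrsf17 and Sdc1 went in opposite ways in PBS and treated mice when each was fitted alone, and Mzb1 was lower in Tregs in both. In the 4 PBS mice 21 genes were lower in Tregs and 4 were higher, namely Ighm (0.63 ± 0.10, adjusted p = 0.00215 by edgeR's quasi-likelihood test), Jchain (0.59 ± 0.18), Tnfrsf17 (0.58 ± 0.20) and Sdc1 (0.57 ± 0.14). In the 12 mice given IL-2, 31 genes were lower in Tregs, with Ighm at -0.61 ± 0.21 and Jchain at -0.92 ± 0.26. That fit is over both antibody arms, which differed. With isotype the Tcon over Treg ratio of these mice was 2.04 to 5.38 for the plasma cell sum and 1.33 to 4.20 for the immunoglobulin sum. With MHC II block these ratios were 0.765 to 1.96 and 0.803 to 1.83, on both sides of 1. The difference between the arms was not tested here. Mzb1 gave -0.70 ± 0.08 in the PBS mice and -1.90 ± 0.25 in the treated mice. Of all tested genes 25.7% were lower and 24.8% higher (50.6% called) in the PBS mice, and 39.7% were lower (77.5% called) in the treated mice. The difference between these 2 fits was not tested.

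Tcons were compared over both antibody arms together, since each group held 2 libraries. All 4 plasma cell genes, Ighm and Igkc were higher with WT IL-2 and H16R than with PBS, while Ighd and 6 B cell genes were lower with H16R. The B cell sums went opposite ways in the arms. In isotype Tcons the 24 B cell genes summed to 2237 and 1982 CPM with PBS, 1032 and 615 with WT IL-2 and 604 and 707 with H16R, and with MHC II block to 524 and 512, 1074 and 883 and 638 and 919. The means with WT IL-2 and H16R were thus 0.390 and 0.311 times that of PBS with isotype, and 1.89 and 1.504 times with MHC II block, and neither overlapped with PBS in either arm. With 3x the B cell sum was 0.452 times that of PBS with isotype and 1.16 times with MHC II block, both without overlap, and the plasma cell sum 0.359 times and, with overlap, 1.13 times. The counts that follow are over both arms. With WT IL-2 6 of 32 genes rose (14.8% of 12538 tested genes rose) and 1 fell (12.4%, 27.2% called in all). With H16R 6 rose and 7 fell (16.2% and 14.9%, 31.1% called in all). The shares of members called were thus not far from those of all genes. The 6 were the same in both, Ighm, Igkc, Jchain, Mzb1, Sdc1 and Tnfrsf17. The members' median was -0.26 and -0.55, that of all genes 0.01 and 0.01. Other gene lists also differed between these groups. With MHC II block the monocyte and macrophage sum was 193 and 201 CPM with PBS, 956 and 609.7 with WT IL-2 and 342 and 367 with H16R, and the neutrophil sum 3.96 and 1.14, 351 and 471 and 55.5 and 53.6 CPM. With isotype the MHC class II sum was 3953 and 3205, 1819.7 and 1388 and 844 and 1052 CPM. Over both arms 3 of 7 neutrophil markers rose with WT IL-2, and no other gene of these 3 lists was called with WT IL-2 or H16R. Their part in the result was not tested.

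Mzb1 was at 101 and 74.9 CPM in isotype PBS Tcons and 71.3 and 59.8 in MHC II block PBS Tcons, against 229 and 119 and 256 and 252 with WT IL-2 and 152 and 178 and 195 and 213 with H16R. Every WT IL-2 and H16R library was above every PBS library, and the log2 fold change with WT IL-2 was 1.42 ± 0.28, adjusted p = 0.0062. Jchain was at 1122 and 782 and 617 and 985 CPM with PBS and 2399 and 1216 and 2122 and 2199.8 with WT IL-2 (1.16 ± 0.32, adjusted p = 0.027). Tnfrsf17 (1.80 ± 0.43), Ighm (1.40 ± 0.31), Sdc1 (1.31 ± 0.32) and Igkc (1.21 ± 0.33) rose with it, and Ralgps2 fell (-0.47 ± 0.17).

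With H16R Tnfrsf17 (1.61 ± 0.43) and Ighm (1.25 ± 0.31) rose most, and Mzb1 (1.205 ± 0.28), Sdc1 (1.07 ± 0.32), Igkc (0.78 ± 0.33) and Jchain (0.77 ± 0.31) rose with them. The 7 that fell were Ighd, Pax5, Blk (-1.54 ± 0.47), Cd22 (-1.31 ± 0.43), Fcmr, Ly86 and Ralgps2. Ighd was at 125 and 95.2 and 11.3 and 10.4 CPM with PBS and 5.49 and 8.52 and 5.92 and 10.9 with H16R, and the isotype PBS libraries alone were high (-2.24 ± 0.67, adjusted p = 0.033). Pax5 was at 173 and 131 and 18.4 and 16.2 CPM with PBS and 11.8 and 17.9 and 9.74 and 22.4 with H16R (-1.85 ± 0.62, adjusted p = 0.048). With isotype both H16R libraries were below both PBS libraries for each of the 7, and with MHC II block for none. This is a description only, since the fit over both arms picked these genes and each group held 2 libraries. The share of all genes that separated in this way was not counted. Ly86 was at 53.9 and 60.4 CPM with PBS and 9.23 and 12.0 with H16R in isotype Tcons, but at 15.4 and 13.1 and 16.6 and 24.2 with MHC II block. Cd22 went from 168 and 108 to 21.5 and 27.6 CPM with isotype and from 32.6 and 35.2 to 32.4 and 40.7 with MHC II block, and Fcmr from 176 and 206 to 28.9 and 37.2 and from 32.6 and 28.5 to 22.9 and 44.7. The difference between the arms was not tested. Without isotype H16R replicate 1, and likewise without isotype H16R replicate 2, 4 genes were called with H16R.

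With 3x 0 of 32 genes passed edgeR's threshold, 6 had an unadjusted p under 0.05 and 4 passed by DESeq2, and 9.87% of all genes were called. This count is over both arms, whose sums went opposite ways as given above. The edgeR count was 2 without isotype WT IL-2 replicate 2 and 1 without isotype WT IL-2 replicate 1 or either MHC II block PBS library. Mzb1 was at 38.2 and 45.0 CPM in isotype 3x Tcons and 95.0 and 109 with MHC II block, and Jchain at 284 and 378 and 692 and 1052 CPM. The isotype 3x Tcons thus lay below every other Tcon library in both genes. An interaction of molecule and antibody was not fitted in Tcons.

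MHC II block against isotype over all Tcons gave 10 of 32 genes lower and none higher (15.1% of all genes lower, 28.9% called). Its median over the members was -0.46 and over all genes 0.00. The 10 were Ighd (-1.50 ± 0.49, adjusted p = 0.05), Pax5 (-1.34 ± 0.44), Ebf1 (-1.30 ± 0.52), Fcmr (-1.15 ± 0.37), Bank1 (-1.03 ± 0.41), Cd79a, Ms4a1, Blk, Cd72 and Ralgps2. Under 3x the plasma cell sum went the other way, from 330 and 432 CPM with isotype to 810 and 1194 with MHC II block. The immunoglobulin sum there went from 4175 and 5006 to 8349 and 10627 CPM. With PBS, WT IL-2 and H16R the plasma cell sums of the arms overlapped. Ms4a1 was at 147 and 139 CPM in isotype PBS Tcons and 24.0 and 21.2 in MHC II block PBS Tcons, and at 58.9 and 68.8 and 20.1 and 24.6 with 3x, but at 50.6 and 33.7 and 53.3 and 41.6 with WT IL-2, where the groups overlapped. The count was 0 without MHC II block 3x replicate 1 or without its replicate 2, 2 without isotype 3x replicate 2, 4 without isotype 3x replicate 1 or MHC II block PBS replicate 2, 5 without isotype PBS replicate 2 or MHC II block PBS replicate 1, and 6 without MHC II block WT IL-2 replicate 2 or H16R replicate 1. Monocyte and macrophage markers rose in 5 of 12 in this comparison and MHC class II genes fell in 1 of 9, and their part was not tested.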

How the data were processed

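RNA of bead-selected Tregs and Tcons was sequenced from polyA-selected, stranded libraries. Per the study's methods the authors aligned reads with the OSA aligner in Omicsoft Array Suite to mouse genome B38 with a GENCODE gene model, and quantified genes with the Omicsoft version of RSEM. The deposited tables hold the authors' expected counts, of which 72.6% of the values above 0 are whole numbers, and the authors' FPKM values, normalized by gene length and library size. Further deposited tables hold the authors' own comparisons from DESeq2 (log2 fold changes, test statistics and p-values) and were not used. An expected count is an estimate, so reads shared by near-identical copies, such as the lambda constant genes, are split by a model.

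The genes and gene lists were chosen with earlier results of these data known. All 32 genes are described, and for each comparison the 5 with the largest change past the threshold and those called against the majority are named with their fold change, the leading ones with their libraries or group ranges. CPM was computed from the library total. Expected counts were rounded to whole numbers and tested with edgeR 4.0.16 in R 4.3.3 (TMM, glmQLFit, glmQLFTest, Benjamini-Hochberg adjustment over all tested genes, threshold 0.1). Genes were kept where they were protein-coding or immunoglobulin constant genes with CPM above 0.5 in at least 4 libraries, which kept all members with a value in each fit. Treg comparisons used the 8 Treg groups without a block, Treg against Tcon used the mouse as a block, and Tcons were fitted by treatment plus antibody. Log2 fold changes are given ± SE. This SE is approximate, being the absolute log2 fold change divided by the square root of the F statistic of the test. DESeq2 1.42.0, other normalizations, filters and left-out libraries were alternatives. The steps were tested on simulated counts. Within a group, libraries differed beyond sampling noise (at least 4.45 in chi-square per gene). Replicates are separate mice, except that the labels do not separate replicates 3a and 3b. The p-values measure the spread between these libraries.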

Additional observations from a re-analysis of the deposited data

Results flagged for a closer look

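In isotype PBS Tregs replicate 1 lay far from its 3 group mates in the summed CPM of 3 of the 5 role groups, with 483 for the receptor chains and signalling genes, 680 (679.9) for the surface receptors and 279 for the transcription regulators. In MHC II block WT IL-2 Tregs replicate 1 lay far from its mates with 487 for the receptor chains and signalling genes and 627 for the surface receptors. In MHC II block 3x Tregs replicate 3 lay far from its mates with 149 for the surface receptors, in which Ms4a1 was at 6.02, 5.47, 18.0 and 6.33 CPM and Fcer2a at 0.683, 0.267, 3.67 and 0.258 CPM over the 4 libraries. These were 6 of 40 group and list pairs examined, where chance would flag about 1 in 20 independent pairs. The lists of 1 library moved together, and most flags came from the 2 libraries that stand apart, so that rate does not apply here.

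The change from PBS differed between the antibody arms, by the interaction test of edgeR, in 31 genes for WT IL-2, 26 for H16R and 29 for 3x, all of them positive, where 11.6%, 11.1% and 20.9% of all genes were positive. Without both libraries that stand apart 22, 23 and 29 were positive (12.3%, 9.79% and 19.8% of all genes), and without isotype PBS replicate 1 alone 15 for H16R (7.38%).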

How the results depend on the processing

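Among the counts of genes past the threshold, 828 values under an alternative lay within 1.5 times the reported count and 49 did not. For the fold changes of single genes 4060 values kept their direction and their side of the threshold, 220 kept the direction but lost the call, and 8 reversed. Of the group sums and median FPKM values under an alternative scaling or gene set, 35 moved by less than 1 SD between libraries and 29 by more, namely 16 sums without the immunoglobulin genes, 1 sum by TMM and 12 FPKM medians on rescaling. Without both libraries that stand apart, 11 genes were called for WT IL-2 against PBS with MHC II block, 13 and 14 for H16R and 3x there, 2 for MHC II block against isotype with PBS, and 26 and 28 for H16R and 3x against WT IL-2 with isotype. DESeq2 gave 14 for H16R against WT IL-2 with isotype and 4 for 3x in Tcons. With all biotypes tested, MHC II block in Tcons gave 6. Replicate numbers of different groups did not pair the mice, since the correlations of same-numbered libraries ran from -0.48 to 0.40 and no comparison with at least 3 pairs had all of them above 0.1. With the replicate block, MHC II block against isotype gave 6 with PBS and 6 in Tcons, WT IL-2 against PBS gave 29 with isotype and 17 with MHC II block, and the cause was not tested. Treg against Tcon gave 29 without the mouse block.

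With 1 library left out at a time, the count for isotype Tregs against PBS ran from 19 to 31 with WT IL-2, 28 to 32 with H16R and 29 to 31 with 3x, and with MHC II block from 7 to 24, 2 to 8 and 4 to 9. For MHC II block against isotype it ran from 0 to 17 with PBS, 17 to 30 with WT IL-2, 11 to 19 with H16R and 17 to 26 with 3x. With isotype it ran from 0 to 15 for H16R against WT IL-2, 13 to 22 for 3x against WT IL-2 and 6 to 9 for 3x against H16R, and with MHC II block from 16 to 32, 16 to 32 and 0 to 1. The interactions ran from 28 to 32, 15 to 29 and 23 to 30, and Treg against Tcon from 26 to 30. In Tcons the range was 5 to 9 with WT IL-2, 4 to 16 with H16R, 0 to 2 with 3x and 0 to 13 for MHC II block. Counts of 32 arise without isotype PBS replicate 4, the library of the empty Cr2 cell, since Cr2 is then tested.

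The reversed values were all of Fcer2a and Pax5. Without both libraries that stand apart, Fcer2a gave -0.50 for WT IL-2 against PBS with MHC II block, -0.60 for MHC II block against isotype with WT IL-2 and 0.78 for 3x against WT IL-2 with MHC II block, where Pax5 gave 0.39. With 1 library left out at a time the same 4 values ran from -0.53 to 4.30, -0.63 to 3.84, -4.21 to 0.80 and -3.16 to 0.42. Scaling the counts another way shifted the median of all genes by less than 0.1 on the log2 scale. Fcer2a fell to 1 count in 1 library, so low members have wide errors at this depth.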
